A study of Mus musculus with 7 samples.

Results

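The genes described here are the enzymes, receptors and carrier of the prostaglandin E2 pathway. They are 10 of the 55423 features of a gene count table and were taken by name: Pla2g4a, Ptgs1, Ptgs2, Ptges, Ptger1, Ptger2, Ptger3, Ptger4, Slco2a1 and Hpgd. All 10 were found, each under a single Ensembl identifier, and all 10 passed the filter of at least 5 reads in at least 1 tumour that left 24433 genes for testing. RNA came from whole skin tumours of mice, 3 tumours of each genotype, and ribosomal RNA was depleted before sequencing. Ivl:BRAFV600E mice carry Ivl-CreERT2, a tamoxifen-inducible recombinase driven by the involucrin promoter, and a heterozygous BRAF V600E allele, so that the oncogene is turned on in involucrin-expressing keratinocytes. Ivl:BRAFV600E-SOX2LSL mice (SOX2LSL below) carry the same alleles and, heterozygous, a Rosa26 allele that makes SOX2 and eGFP after recombination. All mice were on the C57BL/6J background and were induced at 7 to 10 weeks of age, per the labels, by topical tamoxifen on the shaved back. Ivl:BRAFV600E tumours 1 and 2 came from females and tumour 3 from a male, and tumours 1 and 2 also carried a tdRFP reporter allele. SOX2LSL tumours 1 and 2 came from males and tumour 3 from a female. Every SOX2LSL tumour was collected earlier after induction than every Ivl:BRAFV600E tumour, so genotype and time since induction cannot be told apart.

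Prostaglandins are short-lived lipid signals. A phospholipase frees arachidonic acid from membranes, the cyclo-oxygenases turn it into prostaglandin H2, and a terminal synthase turns that into prostaglandin E2, which acts on the receptors EP1 to EP4 of nearby cells. The carrier encoded by Slco2a1 takes prostaglandins back into cells, where the dehydrogenase encoded by Hpgd inactivates them. In skin, prostaglandin E2 is known for its part in inflammation, wound repair and the promotion of papillomas by phorbol ester.

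The comparison asked how these genes differ between BRAF-driven tumours with and without the SOX2 transgene. 2 of the 10 genes passed the test and both were higher in SOX2LSL tumours: Slco2a1, by 0.98 on the log2 scale, and Ptger4, the EP4 receptor gene, by 1.86. Over all genes tested, 3.90% passed (954 of 24433), 2.39% being higher and 1.51% lower. In 5 of the 10 genes the levels of the genotypes did not overlap, 4 of them higher (Ptges, Ptger2, Ptger4 and Slco2a1) and 1 lower (Ptgs1), against 34.2% of all genes tested (18.2% higher and 16.0% lower). 8 of the 10 log2 fold changes were above 0, as were 12904 of all 24433 genes tested. The median of the 10 was 0.74, against 0.04 over all genes tested. In the other 8 genes, among them both cyclo-oxygenases, the adjusted p lay between 0.0538 and 0.876.

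The upstream sequences of the 4 genes with the most distinct groups are shown here, since these are the members whose levels differed most clearly between genotypes (for Ptges, the remaining gene without overlap, the difference was smaller). Each is the 250 bases before the RefSeq transcription start, read 5′ to 3′ on the gene's strand in GRCm38.p6. 9 of the 10 genes matched the RefSeq promoter table, and Ptger1 had no entry. Capitals mark every match, on either strand, to 4 motifs. The TATA box was searched as TATAAA. The CCAAT box was searched as CCAAT, and the GC box as GGGCGG. For sites of the SOX family, the core letters CATTGT were used.
Slco2a1, chr9:103008237-103008486, plus strand: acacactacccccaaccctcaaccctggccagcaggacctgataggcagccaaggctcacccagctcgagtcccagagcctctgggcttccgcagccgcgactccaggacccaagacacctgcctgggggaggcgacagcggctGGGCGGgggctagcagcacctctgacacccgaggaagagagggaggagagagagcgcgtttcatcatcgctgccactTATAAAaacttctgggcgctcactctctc
Ptger4, chr15:5244188-5244437, minus strand: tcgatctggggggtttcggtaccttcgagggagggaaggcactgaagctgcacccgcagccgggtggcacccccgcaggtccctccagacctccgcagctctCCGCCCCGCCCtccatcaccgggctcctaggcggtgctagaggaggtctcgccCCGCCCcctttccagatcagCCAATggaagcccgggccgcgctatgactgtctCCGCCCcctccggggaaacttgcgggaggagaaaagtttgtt
Ptger2, chr14:44987861-44988110, plus strand: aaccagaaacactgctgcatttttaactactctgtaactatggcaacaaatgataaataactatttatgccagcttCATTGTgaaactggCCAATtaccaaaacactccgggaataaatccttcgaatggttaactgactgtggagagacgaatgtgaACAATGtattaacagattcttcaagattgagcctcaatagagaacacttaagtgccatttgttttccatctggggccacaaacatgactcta
Ptgs1, chr2:36230176-36230425, plus strand: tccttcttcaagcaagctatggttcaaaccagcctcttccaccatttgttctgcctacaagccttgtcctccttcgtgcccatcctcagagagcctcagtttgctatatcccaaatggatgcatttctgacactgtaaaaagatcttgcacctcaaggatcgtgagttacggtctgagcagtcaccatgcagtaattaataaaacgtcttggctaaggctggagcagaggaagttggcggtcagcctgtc
The window of Slco2a1 held a TATA box from 29 to 24 bases before the start and a GC box from 106 to 101. The Ptger4 window held 4 GC boxes, 2 of which overlap by a single letter, and a CCAAT box from 75 to 71 bases before the start. Ptger2 had the SOX letters at 2 places, from 174 to 169 and from 92 to 87 bases before the start, and a CCAAT box from 160 to 156. The Ptgs1 window held none of these letters. Across the 32851 windows of the same length in the table, 12.4% held the TATA box, 33.8% the CCAAT box, 32.7% the GC box and 10.7% the SOX letters. Of the other members, Ptges and Hpgd each held the SOX letters once. The cAMP response element, TGACGTCA, was in no member's window and in 1.55% of all windows. The AP-1 motif, TGANTCA, was likewise in no member's window and in 6.75% of all. Such matches are letters only, and the start of Slco2a1 in this table lies inside the gene as GENCODE annotates it.

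Counts on genes ranged from 23565432 to 31152826 per tumour, and 3 counts, taken as the smallest level told from 0, corresponded to 0.0839 to 0.143 CPM (counts per 1000000 on genes) after scaling of library sizes by TMM (trimmed mean of M values). All levels below are in CPM after TMM unless stated. Sox2 was at 0.716, 0.508 and 0.238 CPM in Ivl:BRAFV600E tumours 1, 2 and 3 and at 182, 155 and 158 CPM in SOX2LSL tumours 1, 2 and 3, as the labels say. Nothing in the sources says more of how tumours within a group relate than that each came from its own mouse. TMM factors were 0.941, 0.824 and 0.893 in Ivl:BRAFV600E tumours 1, 2 and 3 and 1.26, 1.07 and 1.07 in SOX2LSL tumours, with no overlap. SOX2LSL tumour 1 had the highest factor, and leaving it out raised the number of genes that passed to 1575.

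**Figure D1:**
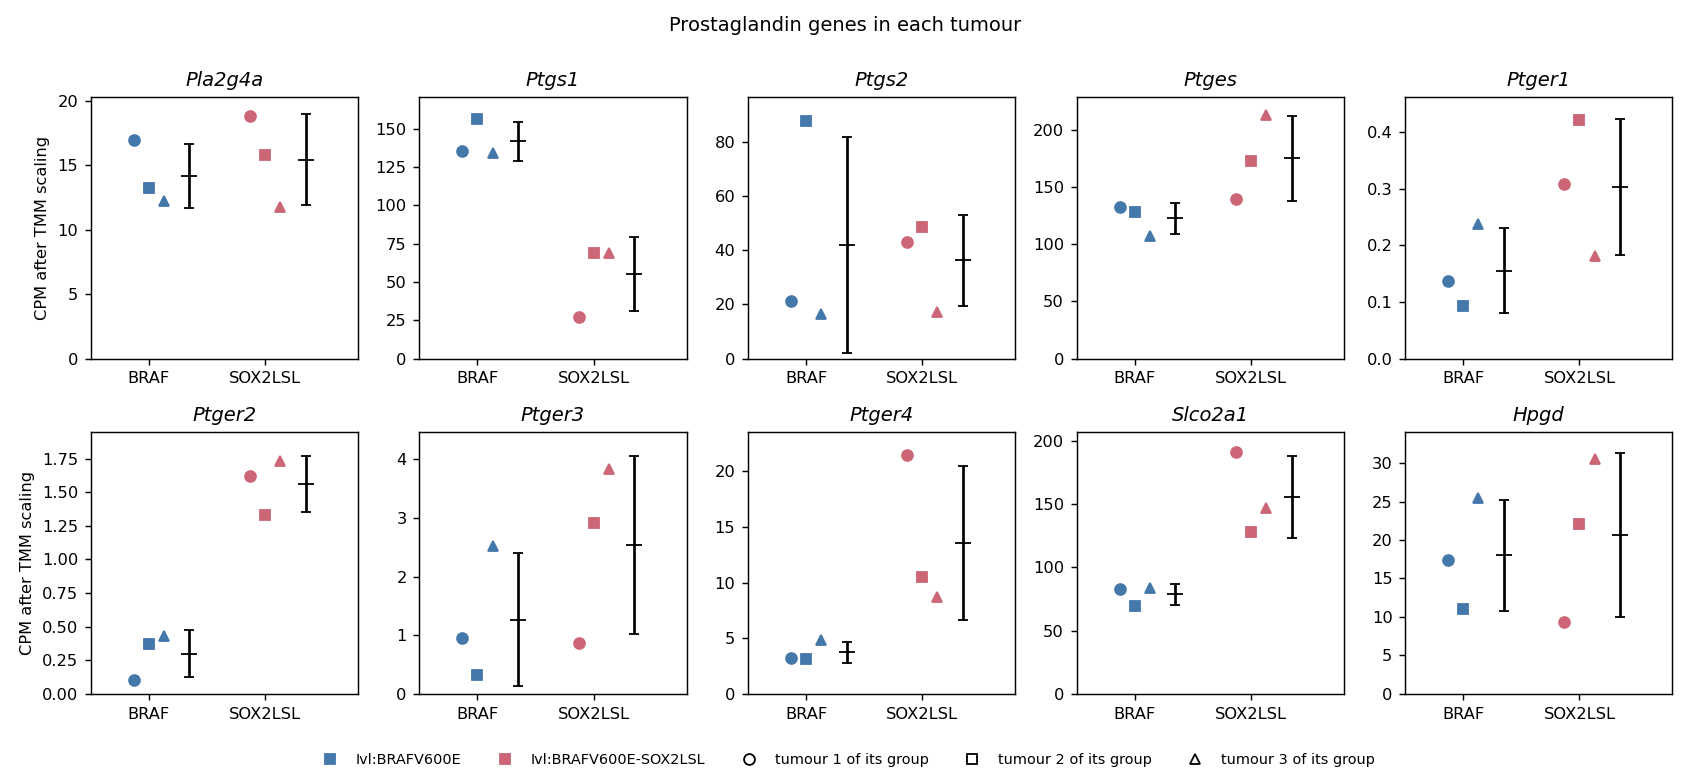
Level of each prostaglandin gene in each tumour (vertical axis, CPM after TMM, starting at 0, with its own range for each gene). Symbols are tumours 1, 2 and 3 of each genotype and black bars are mean ± SD (n = 3). The genotypes separate in Ptgs1, Ptges, Ptger2, Ptger4 and Slco2a1, and in Ptgs2 the high value is Ivl:BRAFV600E tumour 2 at 88.0 CPM.

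Pla2g4a encodes cytosolic phospholipase A2, which frees the arachidonic acid. It lies on chromosome 1 (149829618 to 149961290, minus strand, GRCm38), and Ptgs2 is its neighbour, 138740 bases away with 0 protein-coding genes in between. Pla2g4a was at 17.0, 13.2 and 12.3 CPM in Ivl:BRAFV600E tumours 1, 2 and 3. The SOX2LSL tumours had 18.8, 15.8 and 11.7 CPM. The highest and the lowest of the 6 values were both in SOX2LSL tumours, so the ranges overlapped. The log2 fold change was 0.13 ± 0.22 (SE, adjusted p = 0.758, edgeR quasi-likelihood test with Benjamini-Hochberg adjustment over all genes, as throughout), with a 95% interval from -0.40 to 0.65. A change of the size seen in Slco2a1 was outside that interval. Without SOX2LSL tumour 1 the estimate was -0.04, and with limma voom it was -0.01.

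Ptgs1 encodes COX-1, the cyclo-oxygenase that most tissues make constantly, and lies on chromosome 2 (36230426 to 36252272, plus strand). It was at 135, 156 and 134 CPM in Ivl:BRAFV600E tumours 1, 2 and 3 (mean 142 ± 13, SD). The levels in SOX2LSL tumours were 27.1, 69.0 and 69.1 CPM (mean 55.1 ± 24.2, SD). Every SOX2LSL tumour was below every Ivl:BRAFV600E tumour, and SOX2LSL tumour 1 stood well below the other two of its group. On the log2 scale the difference was -1.36 ± 0.34 (SE), with a 95% interval from -2.16 to -0.57, and the adjusted p was 0.0694. Ptgs1 was therefore not called, though it was by DESeq2 (adjusted p = 0.00265, a test that called 15.0% of all genes), by limma voom with sample weights (0.0237, 8.77% of all genes) and by edgeR without SOX2LSL tumour 1 (log2 fold change -1.04, adjusted p = 0.00745). In the other 5 fits that left out a tumour the adjusted p lay between 0.0956 and 0.194.

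Ptgs2 encodes COX-2, the cyclo-oxygenase that growth factors and inflammation induce (chromosome 1, 150100031 to 150108227, plus strand). It was at 21.3, 88.0 and 16.3 CPM in Ivl:BRAFV600E tumours 1, 2 and 3. In SOX2LSL tumours it was at 43.1, 48.7 and 17.1 CPM. Tumours within each genotype differed more than the genotypes did, and the highest and lowest of all 6 values were both in Ivl:BRAFV600E tumours. The log2 fold change was -0.21 ± 0.68 (SE, adjusted p = 0.876), and its 95% interval, from -1.79 to 1.38, covers differences of either sign. Its sign turned without Ivl:BRAFV600E tumour 2, to 0.95 ± 0.45 (SE, adjusted p = 0.314), without SOX2LSL tumour 3, to 0.14, and with limma voom, to 0.21.

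Because levels of different genes can be compared only per length, CPM was divided by the kilobases of exon of each gene (RPKM after TMM). The ratio of Ptgs1 to Ptgs2 RPKM was 7.46, 2.095 and 9.68 in Ivl:BRAFV600E tumours 1, 2 and 3. It was 0.741, 1.67 and 4.77 in SOX2LSL tumours. The Ptgs1 transcript thus exceeded that of Ptgs2 in 5 of the 6 tumours, SOX2LSL tumour 1 being the exception, and the ranges of the ratio overlapped between genotypes. With the longest transcript as gene length, Ptgs1 and Ptgs2 were nearly level in SOX2LSL tumour 1, at 9.46 and 9.69 RPKM.

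Ptges encodes the microsomal prostaglandin E synthase that works with COX-2 (chromosome 2, 30889471 to 30929863, minus strand). It was at 133, 128 and 107 CPM in Ivl:BRAFV600E tumours 1, 2 and 3. The SOX2LSL tumours had 140, 173 and 213 CPM. The ranges did not overlap, although SOX2LSL tumour 1 lay only slightly above the highest Ivl:BRAFV600E tumour. On the log2 scale the difference was 0.51 ± 0.18 (SE), and the adjusted p was 0.140. Without SOX2LSL tumour 1 the log2 fold change was 0.65 and the adjusted p 0.0435, and in the other 5 fits that left out a tumour the adjusted p lay between 0.218 and 0.285.

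Among the receptors, Ptger4 encodes EP4, which raises cAMP through the stimulatory G protein. The gene lies on chromosome 15 (5206661 to 5244187, minus strand). It was at 3.21, 3.14 and 4.85 CPM in Ivl:BRAFV600E tumours 1, 2 and 3 (mean 3.73 ± 0.97, SD). The levels in SOX2LSL tumours were 21.5, 10.5 and 8.70 CPM (mean 13.6 ± 6.9, SD). All SOX2LSL tumours were above all Ivl:BRAFV600E tumours, and tumour 1 had the highest level. Ptger4 rose by 1.86 ± 0.39 on the log2 scale (SE, adjusted p = 0.0489), with a 95% interval from 0.95 to 2.78. The log2 fold change ranged from 1.36 to 2.103 over the fits that each left out a tumour. The adjusted p was 0.0292 without SOX2LSL tumour 1, but without any of the others it lay above the threshold: 0.184, 0.152 and 0.0867 without Ivl:BRAFV600E tumours 1, 2 and 3, and 0.0760 and 0.0553 without SOX2LSL tumours 2 and 3. It was also 0.0501 with the size factors of DESeq2 and 0.0867 with sex as a covariate. Of the exon length of Ptger4, 15.3% is shared with a processed pseudogene on the opposite strand, and the sources do not say whether the counting used strand.

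Ptger2 encodes EP2, the other receptor that raises cAMP (chromosome 14, 44988195 to 45003820, plus strand). It was far scarcer, with 3, 8 and 9 reads in Ivl:BRAFV600E tumours 1, 2 and 3 (0.102, 0.370 and 0.428 CPM). SOX2LSL tumours had 58, 41 and 48 reads (1.62, 1.33 and 1.73 CPM). The genotypes did not overlap, and the 3 SOX2LSL values were close together. The log2 fold change was 2.40 ± 0.52 (SE), the highest of the 10 genes, with a 95% interval from 1.17 to 3.63, and the adjusted p of 0.0538 missed the threshold. DESeq2 (adjusted p = 0.000875), limma voom (0.0257), edgeR without a filter on low counts (0.0316) and edgeR with the filter of filterByExpr (0.0445) did call it. No fit that left out a tumour called it (adjusted p from 0.0574 to 0.137).

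Ptger3 encodes EP3, which lowers cAMP through the inhibitory G protein (chromosome 3, 157566892 to 157645888, plus strand). It was at 0.955, 0.323 and 2.52 CPM in Ivl:BRAFV600E tumours 1, 2 and 3. In SOX2LSL tumours it was at 0.867, 2.92 and 3.83 CPM. The ranges overlapped, since SOX2LSL tumour 1 was below 2 of the Ivl:BRAFV600E tumours. On the log2 scale the difference was 1.003 ± 0.78 (SE, adjusted p = 0.448). It ranged from 0.55 without Ivl:BRAFV600E tumour 2 to 1.95 without Ivl:BRAFV600E tumour 3 over the fits that each left out a tumour.

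Ptger1 encodes EP1, which raises cell calcium (chromosome 8, 83666678 to 83672753, plus strand). Its reads numbered 4, 2 and 5 in Ivl:BRAFV600E tumours 1, 2 and 3 and 11, 13 and 5 in SOX2LSL tumours, close to the smallest level told from 0. At this depth no difference was detectable (log2 fold change 0.96 ± 0.62, SE, adjusted p = 0.366).

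Per length, Ptger4 made up 69.4%, 76.5% and 56.2% of the summed RPKM of the 4 receptor genes in Ivl:BRAFV600E tumours 1, 2 and 3. In SOX2LSL tumours it made up 86.1%, 65.1% and 55.7%. Ptger4 was thus the main EP receptor transcript in all 6 tumours, and its share overlapped between genotypes. The sum of the 4 genes was 0.695, 0.617 and 1.30 RPKM in Ivl:BRAFV600E tumours and 3.75, 2.42 and 2.35 RPKM in SOX2LSL tumours, with no overlap.

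**Figure D2:**
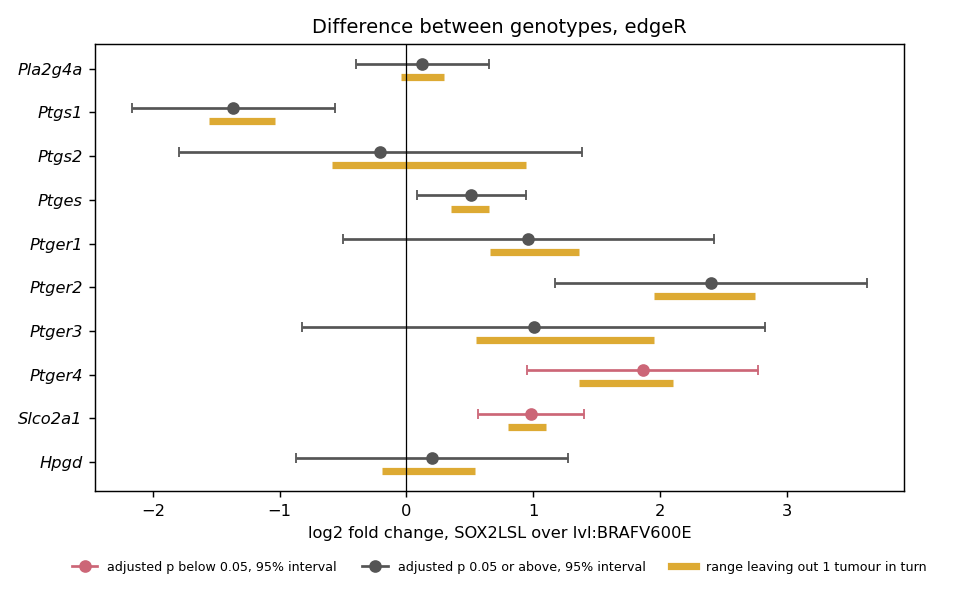
Log2 fold change of each prostaglandin gene, SOX2LSL over Ivl:BRAFV600E (horizontal axis). Points are edgeR estimates with 95% intervals, red where the adjusted p was below 0.05 (Ptger4 and Slco2a1), and the yellow bars span the estimates obtained when each of the 6 tumours was left out in turn. The yellow bars of Pla2g4a, Ptgs2 and Hpgd cross 0.

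Slco2a1 encodes the prostaglandin transporter that clears prostaglandins from outside the cell (chromosome 9, 102988712 to 103096002, plus strand). It was at 83.2, 69.3 and 83.6 CPM in Ivl:BRAFV600E tumours 1, 2 and 3 (mean 78.7 ± 8.2, SD). The SOX2LSL tumours had 191, 128 and 147 CPM (mean 155 ± 32, SD). The lowest SOX2LSL tumour was well above the highest Ivl:BRAFV600E tumour, and SOX2LSL tumour 1 had the highest level. Slco2a1 rose by 0.98 ± 0.18 on the log2 scale (SE, adjusted p = 0.0356), with a 95% interval from 0.56 to 1.40, and had the smallest p of the 10 genes. Left-out tumours moved the log2 fold change between 0.80 and 1.10. As for Ptger4, the adjusted p stayed below the threshold only without SOX2LSL tumour 1 (0.0183). It was 0.148, 0.124 and 0.0845 without Ivl:BRAFV600E tumours 1, 2 and 3, 0.0572 and 0.0679 without SOX2LSL tumours 2 and 3, and 0.0947 with sex as a covariate.

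Hpgd encodes the dehydrogenase that starts the breakdown of prostaglandins (chromosome 8, 56294585 to 56321043, plus strand). It was at 17.4, 11.0 and 25.5 CPM in Ivl:BRAFV600E tumours 1, 2 and 3. The levels in SOX2LSL tumours were 9.40, 22.1 and 30.6 CPM. Both the highest and the lowest value were in SOX2LSL tumours. The log2 fold change was 0.20 ± 0.46 (SE, adjusted p = 0.818), with a 95% interval from -0.87 to 1.27, and its sign turned without Ivl:BRAFV600E tumour 2 (-0.06) or SOX2LSL tumour 3 (-0.19). The transporter and the dehydrogenase, which act in turn in clearance, thus had different results, and the difference between them was not tested.

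**Figure D3:**
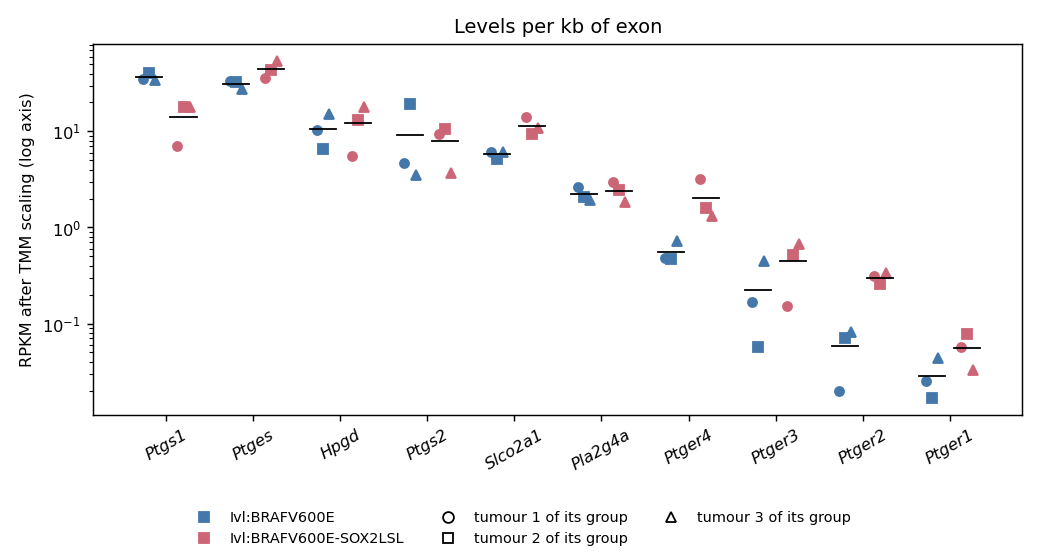
Level of each prostaglandin gene per kilobase of exon in each tumour (vertical axis, RPKM after TMM, log scale), ordered by the mean in Ivl:BRAFV600E tumours. Symbols are tumours and black lines are means (n = 3). Ptgs1 leads in Ivl:BRAFV600E tumours at 36.5 RPKM and Ptges in SOX2LSL tumours at 44.6 RPKM, while the receptor genes are lowest in both.

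Per length, Ptgs1 and Ptges led and the receptors were last in both genotypes. In Ivl:BRAFV600E tumours the mean level was highest for Ptgs1 (36.5 ± 3.3 RPKM, SD) and Ptges (31.3 ± 3.5), followed by Hpgd (10.7 ± 4.3), Ptgs2 (9.14 ± 8.74), Slco2a1 (5.81 ± 0.60) and Pla2g4a (2.21 ± 0.39). The receptors followed with Ptger4 (0.561 ± 0.145), Ptger3 (0.223 ± 0.199), Ptger2 (0.0577 ± 0.0334) and Ptger1 (0.0285 ± 0.0136). Neighbours in this order whose ranges overlapped were Hpgd and Ptgs2, Ptgs2 and Slco2a1, Ptger3 and Ptger2, and Ptger2 and Ptger1. In SOX2LSL tumours Ptges led (44.6 ± 9.4 RPKM), ahead of Ptgs1 (14.2 ± 6.2), Hpgd (12.3 ± 6.3), Slco2a1 (11.5 ± 2.4) and Ptgs2 (7.92 ± 3.68). Pla2g4a (2.42 ± 0.56), Ptger4 (2.04 ± 1.04), Ptger3 (0.446 ± 0.267), Ptger2 (0.301 ± 0.040) and Ptger1 (0.0555 ± 0.0220) came after. There the neighbours whose ranges overlapped were Ptgs1 and Hpgd, Hpgd and Slco2a1, Slco2a1 and Ptgs2, Pla2g4a and Ptger4, and Ptger3 and Ptger2. The range of Ptges lay above that of Ptgs1 in SOX2LSL tumours and below it in Ivl:BRAFV600E tumours. With the longest transcript as gene length, Slco2a1 moved up to the third place in Ivl:BRAFV600E tumours and to the second in SOX2LSL tumours (11.1 and 21.8 RPKM), its exons adding up to much more than its longest transcript.

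The genes whose pattern over the 6 tumours was most like that of Slco2a1 were Ddhd1, Slc52a2 and Psen2. Ddhd1, a phospholipase A1 gene, had a Pearson correlation of log2 CPM of 0.999 with Slco2a1, and Slc52a2 (a riboflavin carrier) and Psen2 (presenilin 2) each had 0.998. Ddhd1 was at 9.24, 6.01 and 9.17 CPM in Ivl:BRAFV600E tumours and at 42.2, 18.8 and 26.5 CPM in SOX2LSL tumours. As for Slco2a1, tumour 2 was the lowest and tumour 1 the highest of the SOX2LSL group. Such likeness comes with choosing Ddhd1 by this correlation. These are values over 6 tumours of 2 genotypes, and 683 genes (2.80% of the others tested) had a correlation above 0.95.

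Beside these, 5 lists of other eicosanoid genes (for signals made from arachidonic acid and its relatives) held 49 genes and 1 list held 8 genes known to respond to cAMP. Of the 57 genes 54 were tested and 5 passed, all of them eicosanoid genes, against 3.90% of all genes tested. In the list of other prostanoid synthases, 1 of the 8 tested genes passed and was higher, and the median log2 fold change was -0.24. It was Hpgds, the haematopoietic prostaglandin D synthase, which was at 4.54, 5.50 and 9.17 CPM in Ivl:BRAFV600E tumours and at 40.0, 25.4 and 18.6 CPM in SOX2LSL tumours. The groups were apart, and Hpgds rose by 2.13 ± 0.37 on the log2 scale (SE, adjusted p = 0.0318). The most abundant members were Ptges3, a cytosolic prostaglandin E synthase and co-chaperone (log2 fold change -0.41, adjusted p = 0.137), and Akr1b3, an aldose reductase that can make prostaglandin F (-0.53, adjusted p = 0.330). Ptgds had at most 4 reads in any tumour and was not tested.

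Of the 5 other prostanoid receptors 0 passed the edgeR test, 1 had an unadjusted p below 0.05 (as had 25.7% of all genes tested, the background for each such count), and the median log2 fold change was 0.85. That was the prostaglandin D receptor gene Ptgdr (adjusted p = 0.132), which limma voom called (adjusted p = 0.0446) and which had at most 12 reads in any tumour, while DESeq2 gave it no adjusted p. The most abundant of the list were Ptgir, the prostacyclin receptor (log2 fold change 0.70, adjusted p = 0.303), and Ptgfr, the prostaglandin F receptor (1.21, adjusted p = 0.271). Of the 4 other breakdown and transport genes, 1 passed and was lower, with a median of -0.11. Ptgr1, a reductase that takes the product of Hpgd further, was at 171, 276 and 142 CPM in Ivl:BRAFV600E tumours and at 89.9, 82.9 and 85.3 CPM in SOX2LSL tumours. All SOX2LSL tumours were lower, and Ptgr1 fell by 1.19 on the log2 scale (SE 0.24, adjusted p = 0.0467). Abcc4, a pump that exports prostaglandins, had a log2 fold change of -0.04 (adjusted p = 0.949).

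Of the other phospholipases A2, 15 of 17 could be tested, 1 passed and was higher, and 11 of the 15 fold changes were below 0 (median -0.73). Pla2g2d, a secreted phospholipase, was at 0.409, 0.0924 and 0.428 CPM in Ivl:BRAFV600E tumours and at 3.19, 1.81 and 1.59 CPM in SOX2LSL tumours. It rose by 2.80 ± 0.57 on the log2 scale (SE, adjusted p = 0.0467) from a level near the smallest told from 0. Pla2g4e (log2 fold change -0.74, adjusted p = 0.246) and Pla2g2f, a secreted phospholipase of the upper epidermis (-1.29, adjusted p = 0.0711), were the most abundant of the list and did not pass.

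Among 14 lipoxygenase and leukotriene genes, 1 was called higher and 1 lower, with a median of -0.04. Alox12e, the epidermal-type 12-lipoxygenase of mice, was at 1.603, 0.277 and 1.81 CPM in Ivl:BRAFV600E tumours and at 28.5, 11.9 and 17.4 CPM in SOX2LSL tumours. It rose by 3.96 ± 0.64 on the log2 scale (SE, adjusted p = 0.0283). Alox12, the platelet-type enzyme, was at 36.7, 47.9 and 42.3 CPM in Ivl:BRAFV600E tumours and at 9.76, 14.5 and 19.4 CPM in SOX2LSL tumours, and fell by 1.54 on the log2 scale (SE 0.26, adjusted p = 0.0291). These related enzymes thus changed in opposite directions, each with no overlap between genotypes. Without a tumour in turn, Hpgds and Alox12 passed in 2 of the 6 fits (without SOX2LSL tumours 1 or 3), Ptgr1 and Alox12e in 1 (without SOX2LSL tumour 1) and Pla2g2d in 0, with the adjusted p reaching 0.139 for Hpgds, 0.121 for Alox12, 0.145 for Ptgr1, 0.128 for Alox12e and 0.164 for Pla2g2d, each time without Ivl:BRAFV600E tumour 1. Their signs did not turn in these fits, and DESeq2 and limma voom, which called 15.0% and 8.77% of all genes, called all 5. Alox12b (log2 fold change -1.87, adjusted p = 0.0800) and Aloxe3 (-1.96, adjusted p = 0.0518), which make barrier lipids of the epidermis, were the most abundant of the list and did not pass.

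Of 8 genes known to respond to cAMP, 0 passed in edgeR, 3 had an unadjusted p below 0.05 against 25.7% of all genes tested, and the median log2 fold change was -0.13. Sik1 (log2 fold change -0.99, adjusted p = 0.0761) and Per1 (-0.97, adjusted p = 0.1104) were the most abundant. DESeq2, which called 15.0% of all genes, called 3 of the 8 (Sik1, Per1 and Pde4b). Limma voom, which called 8.77% of all genes, called 2 of the 8 (Sik1 and Pde4b). Sik1 and Per1 were lower and Pde4b higher. Naming these 3 followed from seeing their values.

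**Figure D4:**
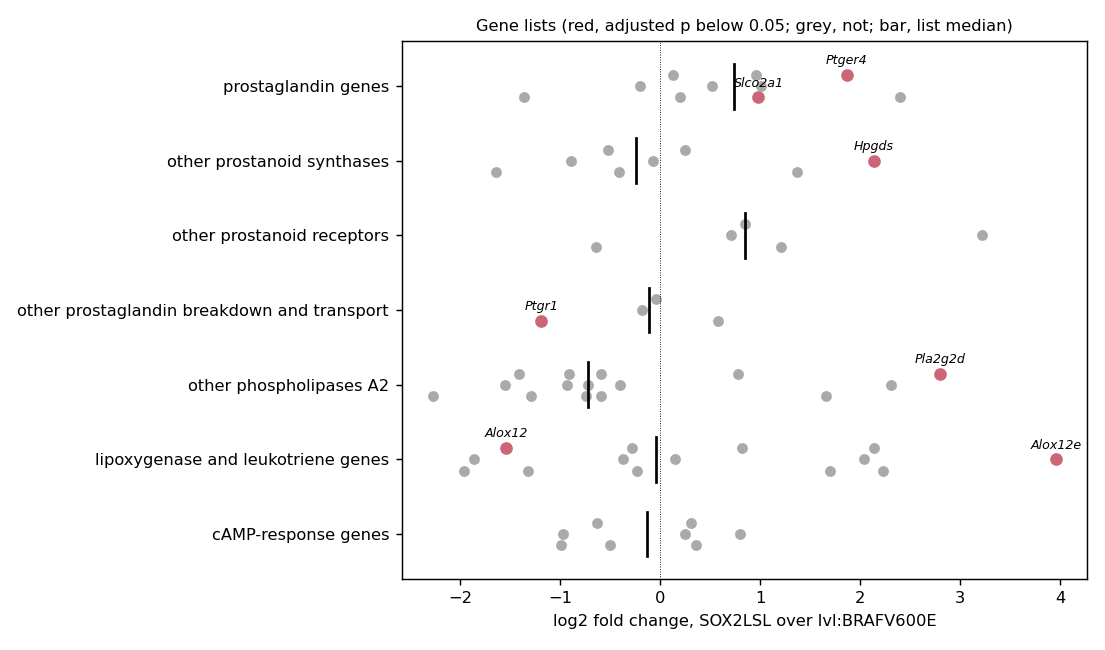
Log2 fold change of every tested gene of the prostaglandin set, of 5 lists of other eicosanoid genes and of the cAMP-response list, SOX2LSL over Ivl:BRAFV600E (horizontal axis). Red points passed edgeR at an adjusted p of 0.05, grey points did not, and the black bar is the median of the list. Called genes lie on both sides of 0, from Alox12 at -1.54 to Alox12e at 3.96.

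Markers of several cell types moved with genotype beside these results. In bulk tumours, fewer cells of a type and less RNA per cell cannot be told apart. The summed level of 8 macrophage markers was 63.5 to 114 CPM in Ivl:BRAFV600E tumours and 170 to 472 CPM in SOX2LSL tumours. 1 of the 8 passed the test (Csf1r, log2 fold change 1.98, adjusted p = 0.0483, and 0.0553 to 0.184 without any tumour but SOX2LSL tumour 1). 7 of the 8 were higher without overlap, and none was at 0 in any Ivl:BRAFV600E tumour. Over all genes tested, 3.90% passed and 18.2% were higher without overlap (16.0% lower), the background for each such count of markers. SOX2LSL tumour 1 had the highest macrophage sum, as it had the highest levels of Ptger4, Slco2a1, Hpgds and Pla2g2d. Of 8 mast cell markers 0 passed in edgeR (5 at an unadjusted p below 0.05), with sums of 12.0 to 20.7 CPM and 46.8 to 53.4 CPM. Hdc and Kit overlapped between genotypes, and the other 6 were higher without overlap. In Ivl:BRAFV600E tumour 2, Hdc (14.1 CPM) and Kit (6.47 CPM) made up nearly all of the sum of 20.7 CPM. Fcer1a was at 0 in Ivl:BRAFV600E tumour 1, and Mcpt4 and Ms4a2 were at 0 in tumour 2. The part of these cells in the higher Ptger4, Slco2a1, Hpgds and Pla2g2d was not tested.

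6 endothelial markers, of interest because blood vessels are known to make Slco2a1, summed to 155 to 170 CPM in Ivl:BRAFV600E tumours and 158 to 192 CPM in SOX2LSL tumours, with 0 passing in edgeR and 2 at an unadjusted p below 0.05. Within the list, Pecam1 was higher (log2 fold change 0.32, adjusted p = 0.184) and Kdr lower (-0.51, adjusted p = 0.0976) without overlap. The part of blood vessels in the Slco2a1 values was not tested. The sum of 8 keratinocyte markers was 78904 to 117557 CPM in Ivl:BRAFV600E tumours and 12515 to 43663 CPM in SOX2LSL tumours. Krt1 (log2 fold change -2.24, adjusted p = 0.149) and Krt10 (-3.06, adjusted p = 0.0935), keratins of the layers above the basal layer, were lower without overlap, while the adhesion genes Dsg3 (0.69, adjusted p = 0.121) and Cdh1 (0.35, adjusted p = 0.175) were higher without overlap. The basal genes Krt5 (log2 fold change 0.29), Trp63 (0.10) and Krt14 (-0.65) overlapped, as did Ivl (-0.64), and 0 of the 8 passed in edgeR (4 at an unadjusted p below 0.05). As in Ptgs1, SOX2LSL tumour 1 had the lowest sum, and the part of the keratinocyte layers in the Ptgs1 values was not tested.

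Neutrophil markers summed to 24.7 to 29.5 CPM and 46.4 to 69.7 CPM, with 0 of 6 passing in edgeR and 4 at an unadjusted p below 0.05. Fibroblast markers (587 to 3954 CPM and 3131 to 6473 CPM, 0 of 6 passing, 1 at an unadjusted p below 0.05) overlapped. Of 5 smooth muscle markers (29.9 to 76.7 CPM and 87.5 to 286 CPM) Des passed, a gene that skeletal muscle also makes, and without Des the other 4 summed to 28.5 to 73.7 CPM and 47.4 to 191 CPM, which overlap. Skeletal muscle markers went from sums of 1.09 to 3.56 CPM to 192 to 905 CPM, with 7 of 8 passing and Myh4 at 0 in all Ivl:BRAFV600E tumours. The part of muscle in the prostaglandin results was not tested.

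**Figure D5:**
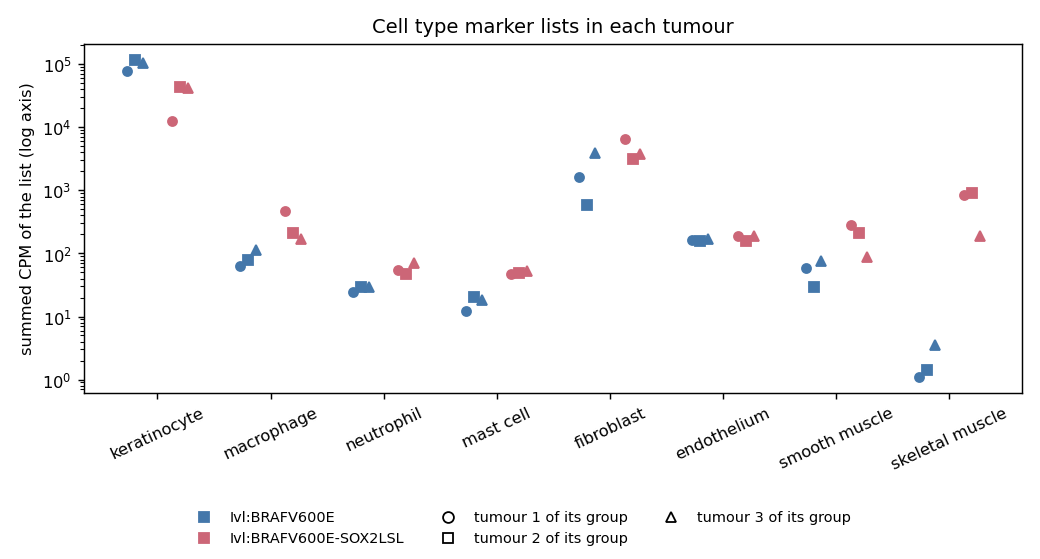
Summed CPM of each cell type marker list in each tumour (vertical axis, CPM after TMM, log scale). Symbols are tumours 1, 2 and 3 of each genotype. Sums of the macrophage, mast cell, neutrophil, smooth muscle (through Des) and skeletal muscle lists are higher in all SOX2LSL tumours, the keratinocyte sum, carried by keratins, is lower, and the endothelial sums overlap.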

How the data were processed

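Bulk RNA of mouse skin tumours was sequenced after depletion of ribosomal RNA. Per the labels and methods, the authors checked reads with FastQC, used TrimGalore for trimming, HISAT2 2.1.0 for alignment to GRCm38 and featureCounts (Subread 1.6.3) for counting per gene. They deposited raw counts per gene, not normalised. Strand and multimapping settings are not given in the sources used here. The Source Data of the study tie 6 columns to genotypes. The remaining 1 column was not used because its group is uncertain: it is named in the way of the SOX2LSL columns, whereas the labels list 4 Ivl:BRAFV600E and 3 SOX2LSL tumours. The test was designed for 4 against 3 tumours and run on 3 against 3, for which the smallest exact permutation p is 0.1.

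Genes reaching 5 reads in 1 or more tumours were tested with edgeR 4.0.16 (TMM, quasi-likelihood, Benjamini-Hochberg adjustment over 24433 genes at 0.05) in R 4.3.3. Scripts were tested on simulated data. Log2 CPM used a prior count of 2. Lengths and coordinates came from GENCODE M21, upstream sequences from RefSeq (GRCm38.p6). Depth and the 3-count floor cover counting error only.

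The prostaglandin genes and the lists were chosen with earlier results of these data known. Named were all prostaglandin genes, called genes and the 2 most abundant of each other list, markers, Sox2, and the 3 genes most like the member with the smallest p. Alternatives were DESeq2 1.42.0, limma 3.58.1 (voom with sample weights), other scalings and filters, sex as a covariate, removal of the most counted gene or of skeletal muscle genes, each tumour left out, and another gene length. A result bearing on how Ptger1 was counted is not reported here.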

Additional observations from a re-analysis of the deposited data

How the results depend on the processing

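The number of genes called over all genes tested, 954, was 3653 with DESeq2, 2142 with limma voom, 1759 without a filter on low counts and 228 with sex as a covariate, and 22 to 1575 in the fits without 1 of the tumours. Of the 10 prostaglandin genes, 2 were called, against 4 with DESeq2, limma voom or no filter, 1 with the size factors of DESeq2, 0 with sex as a covariate and 0 to 4 with each tumour left out. The 4 were Ptgs1, Ptger2, Ptger4 and Slco2a1 in each of the former 3 settings, and Ptgs1, Ptges, Ptger4 and Slco2a1 without SOX2LSL tumour 1. Of the 57 other eicosanoid and cAMP-response genes, 5 were called, against 21 with DESeq2, 18 with limma voom, 16 without a filter, 9 with filterByExpr (3, 2, 2 and 1 of these being cAMP-response genes), 1 with sex as a covariate and 0 to 14 with each tumour left out. The sign of the log2 fold change turned in 3 prostaglandin genes, none of them called: Ptgs2 (0.21 with limma voom, 0.95 without Ivl:BRAFV600E tumour 2, 0.14 without SOX2LSL tumour 3), Hpgd (-0.06 and -0.19 without the same tumours) and Pla2g4a (-0.01 with limma voom, -0.04 without SOX2LSL tumour 1). With each tumour left out, these ran from -0.59 to 0.95 for Ptgs2, from -0.19 to 0.54 for Hpgd and from -0.04 to 0.29 for Pla2g4a. The other 7 kept their sign in all 15 alternative fits, except that filterByExpr left Ptger1 out. The cause of these differences was not tested. No paired analysis was possible because the columns used carry no replicate numbers. Depth limits Ptger1 and Ptger2, and the number of tumours limits all else.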

Other observations

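Several other eicosanoid genes, named after their values were seen, lay close to the threshold. Pla2g7, a phospholipase that inactivates platelet-activating factor, was at 7.71, 9.79 and 10.1 CPM in Ivl:BRAFV600E tumours and at 83.9, 21.0 and 31.5 CPM in SOX2LSL tumours (log2 fold change 2.31, adjusted p = 0.0527, edgeR). Alox5, which starts the making of leukotrienes, was at 0.580, 0.647 and 2.04 CPM and at 5.12, 3.76 and 5.38 CPM (log2 fold change 2.13, adjusted p = 0.0648), and its partner Alox5ap was at 0.887, 1.48 and 2.61 CPM and at 5.73, 4.63 and 5.74 CPM (1.70, adjusted p = 0.0612). Prxl2b, a prostamide and prostaglandin F synthase, was at 29.6, 48.1 and 39.4 CPM in Ivl:BRAFV600E tumours and at 6.41, 14.6 and 16.5 CPM in SOX2LSL tumours (-1.65, adjusted p = 0.0543). In each of these genes the genotypes did not overlap, as held for 34.2% of all genes tested.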
